A study of Gallus gallus with 6 samples.

Results

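Dense clusters of putative enhancers are stretches of the chick genome in which many candidate enhancers lie close together. They were chosen by the positions of the enhancers alone: the enhancer lists of FGF2-treated and control tissue were pooled on chromosomes 1 to 28 and Z, rows that overlapped by at least 1 bp were joined into 1 enhancer, and joined enhancers up to 12.5 kb apart were chained. Chains of 10 or more are the dense clusters. There were 247 of them, or 3.61% of the 6834 chains, and they held 3865 of the 17928 joined enhancers (21.6%). Of the rows in the lists, 2857 of 12131 from FGF2-treated tissue (23.6%) and 2788 of 10616 from control tissue (26.3%) lay in a dense cluster.

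The lists come from posterior pre-placodal ectoderm (pPPR), dissected from HH6 chick embryos and profiled by nano-ChIP-seq, which adapts chromatin immunoprecipitation with sequencing to few cells. In the FGF2 group the explants were cultured for 6 h in DMEM with 0.25 ng/µl FGF2. In the control group (Cnt) they were cultured for 6 h in DMEM without FGF2. About 100 tissues were pooled per condition, and each condition has 1 library for H3K27ac and 1 for H3K27me3, so there are no replicates, and FGF2-treated and control tissue are compared without a test or p-value. All intervals given are exact 95% binomial (Clopper-Pearson) intervals, which cover counting error only and treat neighbouring enhancers as independent, which they are not. Read depth and peak heights are unknown from lists of positions, and a bulk sample cannot separate more cells with a mark from more of the mark per cell.

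FGF signalling induces otic-epibranchial progenitors (OEPs), the common precursors of the inner ear and the epibranchial ganglia, from the pre-placodal ectoderm. Acetylation of histone H3 at lysine 27 (H3K27ac) flanks active enhancers and promoters, while trimethylation of the same lysine (H3K27me3) is deposited by the Polycomb machinery at repressed genes. Enhancers are not spread evenly. Close-set groups with much H3K27ac, often called super-enhancers or stretch enhancers, are known in many tissues for lying near genes that define cell identity, although dense groups also lie in gene-rich DNA with many active promoters. The clusters described here were defined by spacing, not by signal strength, and promoters were not separated from enhancers.

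Among the elements that the study cloned, those nearest to a dense cluster are a pair of regulatory elements of Foxi3, a forkhead transcription factor required for otic placode formation. The study's supplement lists 5 named elements that were cloned. They were chosen from the study's own putative enhancers at known FGF targets or OEP genes. Of these elements, Foxi3-E1 and Foxi3-E2 lie 23.6 and 39.7 kb beyond the end of a dense cluster. That cluster, with 1 on chromosome 22, had the largest excess of FGF2-only over control-only enhancers. Foxi3-E1 lies at chr4:85595147-85595756 (610 bp) and Foxi3-E2 at chr4:85611260-85611770 (511 bp) of the galGal4 build, counted from 1. The designed primers that bound the elements are shown because they fix the place of the elements beside that cluster. Each is written 5′ to 3′.
Foxi3-E1 forward: tctgacatttcatcatggcttca
Foxi3-E1 reverse: ggtcatctgaatgacaactgtctc
Foxi3-E2 forward: tttggccctgttcaaatgg
Foxi3-E2 reverse: cagtttgttgataccttcagtgt

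A dense cluster held 10 to 54 joined enhancers, with a median of 13, over a span of 28.99 to 235 kb, with a median of 64.1 kb. Together the clusters spanned 18.2 Mb. Within a cluster there were 13.8 to 34.5 enhancers per 100 kb, with a median of 21.7. At the threshold, 43 clusters had exactly 10 enhancers and 60 chains had 9, so many chains lay just on either side of it. Larger clusters were fewer: 48 had 20 or more enhancers and 11 had 30 or more.

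The spacing inside the clusters follows from how a putative enhancer was defined. Of the rows in the lists, 12125 of 12131 for FGF2 and 10612 of 10616 for control were exactly the gap between 2 neighbouring H3K27ac peaks called by Homer, from 750 to 5000 bp wide. A Homer peak is 751 bp wide. The median distance from 1 enhancer to the next in a cluster was also 751 bp, and 2866 of the 3618 neighbouring pairs (79.2%) lay at most 1 peak width apart. In 2808 of these pairs (98.0%) the same called peak of 1 library lay between rows of that library's list, and in the other 58 an FGF2-only enhancer stood beside a control-only one with no such peak. A dense cluster, pooled over both conditions, is therefore made mostly of runs of neighbouring H3K27ac peaks and the gaps between them, with breaks between runs. Its enhancers are not independent of each other.

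By condition, the 3865 enhancers of the dense clusters divided into 1259 found only in the FGF2 list, 1187 found only in the control list and 1419 shared by both. FGF2-only enhancers made up 32.6% of the members (interval 31.1 to 34.1%), against 43.2% of all joined enhancers. Control-only enhancers made up 30.7% (29.3 to 32.2%), against 34.8% of all. Shared enhancers made up 36.7% (35.2 to 38.3%), against 22% of all and 18.0% (17.4 to 18.7%) of the 14063 enhancers outside the clusters. The lists that chose the members are the same ones that give these classes, so the shares are a description.

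The shared share differed by the size of the chain. It was 9.1% for enhancers that stood alone, 18.0% in chains of 2 to 4 and 25.3% in chains of 5 to 9. Among the dense clusters it was 33.4% in those of 10 to 14, 31.2% in those of 15 to 19 and 45.1% (42.4 to 47.9%) in the 48 clusters of 20 or more. On either side of the threshold it was 32.8% in clusters of exactly 10 and 26.9% in chains of 9. The lists were pooled before chaining, so the size of a chain is not independent of how much of it both conditions marked.

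**Figure D1:**
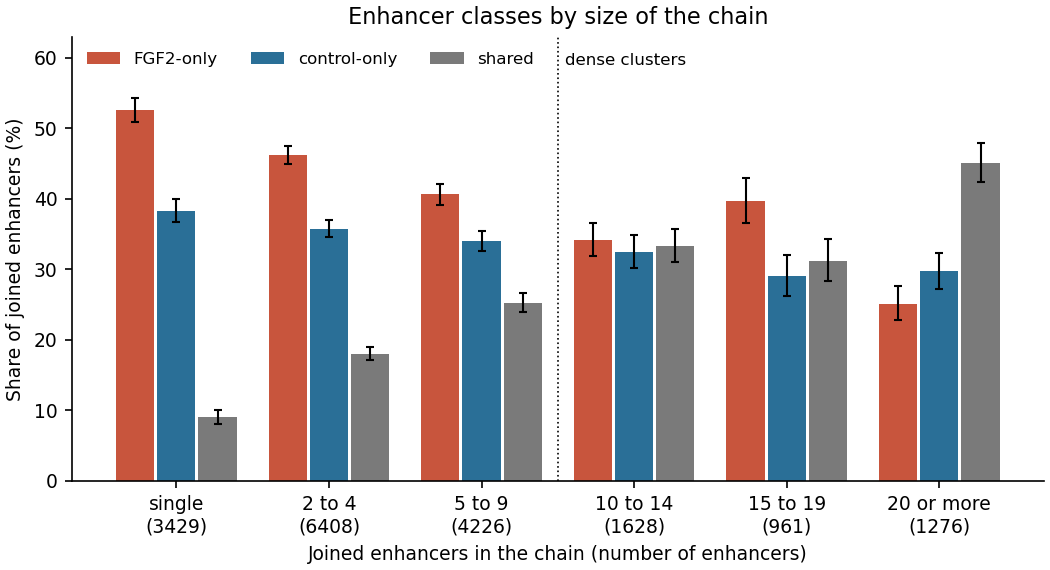
Share of joined enhancers (%) that were FGF2-only, control-only or shared, by the number of enhancers in the chain, with the number of enhancers in parentheses and exact 95% binomial intervals as bars. Shared enhancers made up 9.1% of those that stood alone and 45.1% of those in clusters of 20 or more, and the dotted line marks where dense clusters begin.

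Overlap of the lists was also counted in bases. Enhancers of the FGF2 list covered 40.1% of the span of the dense clusters, those of the control list covered 39.0%, and 18.98% lay under both. Thus 47.4% of the FGF2 enhancer bases in the clusters were also control enhancer bases, and 48.6% of the control bases were also FGF2 bases. In chains of 5 to 9 these shares were 33.9% and 37.9%. There the FGF2 list covered 37.4% of the span, the control list 33.5%, and 12.7% lay under both. Overlap of this kind rises with the cover of each list, so the higher shares in dense clusters do not by themselves show more sharing. Shared enhancers were the widest, with a median of 2950 bp against 2499 bp for FGF2-only and 2422 bp for control-only members. They are joined from rows of both lists, which can only add width. Whether joining accounts for the whole difference was not tested.

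Dense clusters lay mostly on the small chromosomes. Chromosomes 11 to 28, which in birds are mostly microchromosomes rich in genes and GC, held 159 clusters with 2586 members (66.9%), and 34.8% of the enhancers on these chromosomes were in a dense cluster. Chromosomes 1 to 10 and Z held 88 clusters with 1279 members, and 12.2% of the enhancers on them were in one. The share reached 58.6% on chromosome 26, 51.2% on chromosome 23 and 49.7% on chromosome 24. It was 6.97% on chromosome 1, 5.42% on chromosome 2 and 4.28% on chromosome Z, and chromosome 16 had no cluster. No gene annotation of galGal4 was used, so gene density was not compared with these shares.

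**Figure D2:**
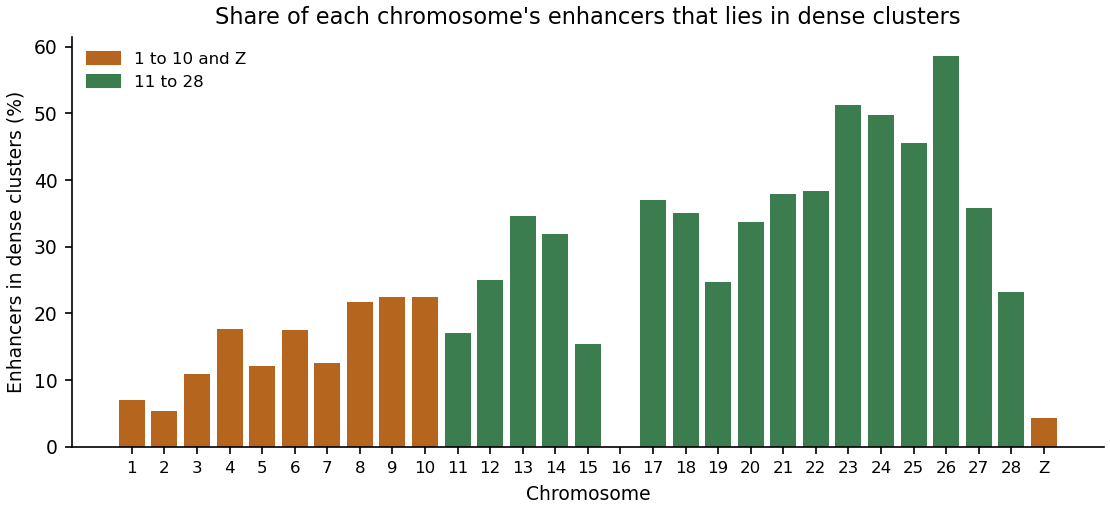
Share of each chromosome's joined enhancers that lay in dense clusters (%), by chromosome. Chromosome 26 had the highest share (58.6%) and the bars for chromosomes 1, 2 and Z stay below 7%.

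The chromosome group moved with the balance between the conditions. In all dense clusters together there were 1.06 FGF2-only enhancers for each control-only one (0.979 to 1.15), against 1.29 (1.24 to 1.33) outside them. The ratio in dense clusters was 0.300 when enhancers were derived from the peaks of the second caller, MACS2. On chromosomes 1 to 10 and Z, however, the ratio was 1.55 (1.35 to 1.78) in dense clusters and 1.46 (1.40 to 1.53) outside. On chromosomes 11 to 28 it was 0.874 (0.792 to 0.965) in dense clusters and 0.995 (0.934 to 1.06) outside. The lower pooled ratio in the clusters was thus not seen on the larger chromosomes, and the ratio was higher in dense clusters than outside on 13 of the 28 chromosomes that had any. By cluster size the pooled ratio was 1.05 in clusters of 10 to 14 and 1.37 in those of 15 to 19. It was 0.847 in those of 20 or more. These pooled values mix the chromosome groups. In the same order the ratios were 1.33, 2.04 and 1.55 on chromosomes 1 to 10 and Z. On chromosomes 11 to 28, which held 37 of the 48 clusters of 20 or more, they were 0.901, 1.08 and 0.720.

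The larger shared share was seen within both chromosome groups. It was 34.6% (32.0 to 37.3%) in dense clusters against 16.4% (15.6 to 17.2%) outside on chromosomes 1 to 10 and Z. On chromosomes 11 to 28 it was 37.7% (35.9 to 39.6%) against 21.1% (19.97 to 22.3%). It was higher inside than outside on all 28 chromosomes with a dense cluster. The same lists chose the clusters and give the classes on every chromosome, so this too is a description and not independent support.

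Taken 1 by 1, the clusters leaned both ways. FGF2-only enhancers outnumbered control-only ones in 126 clusters (51.0%), control-only outnumbered FGF2-only in 106 (42.9%) and the counts were equal in 15. The difference, FGF2-only minus control-only, ran from -14 to 15 enhancers with a median of 1, and in 110 clusters it was at most 3 in either direction. In 15 clusters the FGF2-only excess was 10 or more, and in 8 the control-only excess was. There were 18 clusters with no control-only enhancer, 6 with no FGF2-only enhancer and 10 with no shared one. The shared share of a cluster ran from 0 to 91.7% with a median of 33.3%. The lean depended on the peak caller: with enhancers derived as gaps between MACS2 peaks, 87 of the 123 FGF2-leaning clusters that could be placed had more control-only enhancers, and 97 of 105 control-leaning ones did.

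**Figure D3:**
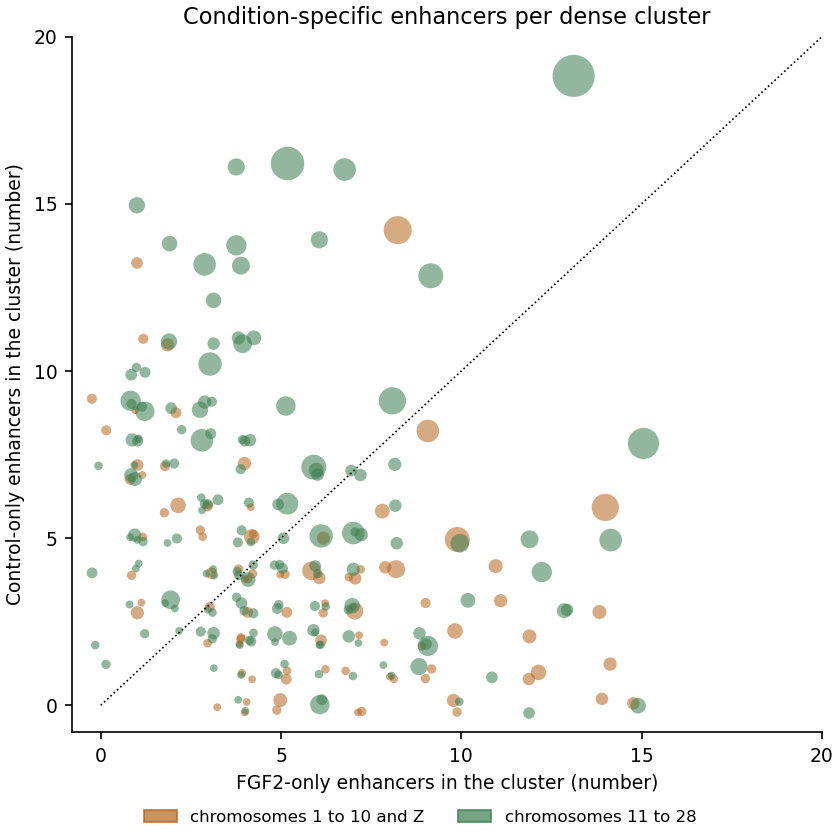
Number of FGF2-only (x axis) and control-only enhancers (y axis) in each of the 247 dense clusters, with point area growing with the number of enhancers, a small seeded scatter to part overlapping points and a dotted line of equal numbers. Points spread to both axes: 126 clusters lie on the FGF2 side of the line and 106 on the control side.

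Enhancers of 1 condition often stood side by side. Of the 3618 neighbouring pairs within clusters, both members were FGF2-only in 680, control-only in 633 and shared in 781. In 378 pairs an FGF2-only enhancer stood beside a control-only one, and in 1146 a shared enhancer stood beside another class. Runs of 5 or more FGF2-only enhancers occurred in 46 clusters and runs of 5 or more control-only enhancers in 45, with the longest runs 15 and 10 enhancers. A peak called in only 1 condition borders 2 gaps, so the definition can place enhancers of 1 class side by side where the other list has no row. Where the other list has a row over both gaps, they join into 1 shared enhancer. How much of the runs comes from the definition was not tested.

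When each list was chained by itself, the FGF2 list gave 116 dense clusters and the control list 101. Of the FGF2-alone clusters, 47 (40.5%) overlapped a control-alone cluster, and 49 of the control-alone clusters (48.5%) overlapped an FGF2-alone one. Of the 247 pooled clusters, 47 overlapped both kinds, 64 only an FGF2-alone cluster and 46 only a control-alone cluster. The other 90 reached 10 enhancers only when the lists were pooled.

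The cluster with the largest share of FGF2-only enhancers among the 8 most FGF2-leaning lay next to the Foxi3 elements, at chr4:85512385-85571567 (59.2 kb). It held 16 enhancers, of which 15 were FGF2-only, none was control-only and 1, at the end of the cluster away from Foxi3-E1, was shared. The 15 FGF2-only enhancers formed the longest run in any cluster and were 1416 to 4133 bp wide. Homer had called 17 H3K27ac peaks here with FGF2 and 3 in control. The MACS2 peaks were not used by the rule, though they come from the same reads. The 9 MACS2 peaks of FGF2 tissue covered 60.5% of the span and the 8 of control tissue covered 6.48%, so the control peaks were nearly as many but far narrower. This gap of 54.1 percentage points was the largest in favour of FGF2 among the 243 clusters in which MACS2 peaks could be placed. H3K27me3 peaks by Homer numbered 5 with FGF2 and 4 in control.

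Foxi3-E1 and Foxi3-E2 themselves lay just outside. Their own chain, chr4:85589748-85629601, began 18.2 kb after the cluster ended and held 9 enhancers, 8 FGF2-only and 1 control-only, 1 fewer than the least number for a dense cluster. With a chain distance of 25 kb the chains on both sides of that gap become 1. The remaining cloned elements lay in shorter chains: Spry1-E, of a feedback inhibitor of FGF signalling, in a chain of 6 FGF2-only enhancers, Hesx1-E, of a homeobox repressor, in 4 FGF2-only enhancers, and Cxcl14-E, of a chemokine, in 6, of which 4 were FGF2-only and 2 shared. Their nearest dense clusters were 3.53 Mb, 533 kb and 434 kb away. Because the study chose its elements among putative enhancers of these same libraries, the FGF2-only enhancers around them are not independent support.

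The same FGF2-only excess of 15 was found at chr22:2461370-2546357, with 20 enhancers, 15 FGF2-only and 5 shared. MACS2 peaks covered 51.3% of it with FGF2 and 29.4% in control. Next came chr2:14841830-14912254, with 16 enhancers, 14 FGF2-only and 2 shared, where MACS2 cover was 29.9% with FGF2 and 10.3% in control. The cluster chr3:24187175-24243468 held 17 enhancers, 14 of them FGF2-only and 1 control-only, with 49.7% covered with FGF2 and 28.5% in control. In all of these MACS2 cover and Homer H3K27ac peak counts were higher with FGF2. The Homer counts follow from the choice of these clusters, since the lists are gaps between Homer peaks. MACS2 used the same reads.

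The other 4 of the 8 most FGF2-leaning clusters had an excess of 11 or 12. At chr4:741649-816035 there were 14 FGF2-only, 3 control-only and 1 shared enhancer, and MACS2 peaks covered 61.8% with FGF2 and 30.01% in control. At chr13:17049522-17131212 there were 12 FGF2-only and 3 shared enhancers, with 30.3% covered with FGF2 and 22.7% in control. At chr10:14210600-14278448 there were 12 FGF2-only, 1 control-only and 3 shared enhancers, with 39.1% covered with FGF2 and 16.2% in control. The exception in cover was chr4:5206547-5306015, with 12 FGF2-only, 1 control-only and 7 shared enhancers, where MACS2 cover was 44.4% with FGF2 and 49.2% in control. Gaps between MACS2 peaks gave it 0 FGF2-only and 5 control-only enhancers. They gave equal counts at chr4:741649-816035 (4 and 4) and chr10:14210600-14278448 (2 and 2). In the rest of the 8 they gave more FGF2-only than control-only enhancers.

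On the control side, the cluster that MACS2 separated most clearly among the 8 most control-leaning was chr6:11242525-11299190 (56.7 kb). It held 15 enhancers, 1 FGF2-only, 13 control-only and 1 shared. MACS2 had 1 peak here with FGF2 and 15 in control, covering 2.30% with FGF2 and 45.4% in control. Homer had 5 H3K27ac peaks with FGF2 and 15 in control, and H3K27me3 peaks numbered 3 with FGF2 and 1 in control. In H3K27ac it thus mirrored the cluster beside Foxi3, where H3K27me3 peaks were 5 with FGF2 and 4 in control. More Homer H3K27me3 peaks with FGF2 were also called over the dense clusters together (500 against 319 in control).

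Chromosome 21 carried a neighbouring pair of control-leaning clusters. The first, chr21:709665-804231, had 21 enhancers, 1 FGF2-only, 15 control-only and 5 shared, the largest control-only excess of any cluster. MACS2 peaks covered 19.7% of it with FGF2 and 54.8% in control. The next, chr21:831077-920872, had 22 enhancers, 4 FGF2-only, 16 control-only and 2 shared, and was covered to 25.3% with FGF2 and 40.5% in control. Of the 27 pairs of neighbouring clusters under 50 kb apart, 7 leaned to FGF2 together, 7 to control together, 8 in opposite directions, and in 5 at least 1 had equal counts.

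The remaining control-leaning clusters ranged from small ones with few FGF2-only or shared enhancers to larger ones with more shared enhancers. At chr17:1742915-1834102, 2 enhancers were FGF2-only, 14 control-only and 4 shared. At chr7:34950783-35009271, 1 was FGF2-only, 11 control-only and 1 shared. At chr27:4555122-4670743, 4 were FGF2-only, 14 control-only and 8 shared, and at chr28:4291734-4413941, 3 were FGF2-only, 13 control-only and 13 shared. MACS2 cover was higher in control in all 8 control-leaning clusters, with the smallest gap at the chromosome 27 cluster (20.9% with FGF2 and 24.0% in control).

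The largest clusters mixed all classes. The 10 with most enhancers held 30 to 54 and spanned 129 to 235 kb, and 3 of them lay on chromosome 24. The largest, chr24:3977386-4212211, had 54 enhancers, 13 FGF2-only, 19 control-only and 22 shared, with MACS2 cover of 35.7% with FGF2 and 48.8% in control. The second, chr24:2144927-2369535, had 43, with 5 FGF2-only, 16 control-only and 22 shared, and was also among the 8 most control-leaning (32.8% covered with FGF2 and 54.3% in control). After it came chr24:1860068-2081176 with 40, of which 15 were FGF2-only, 8 control-only and 17 shared, and which was covered to 43.3% with FGF2 and 41.8% in control. These last clusters are neighbours with opposite leans in the enhancer lists. Gaps between MACS2 peaks gave both more control-only enhancers, with 10 FGF2-only and 13 control-only at chr24:1860068-2081176 and 6 and 28 at chr24:2144927-2369535.

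The other large clusters were chr4:991137-1205411 with 36 enhancers (8 FGF2-only and 14 control-only), chr3:37573169-37758304 with 35 (14 and 6), and chr26:216103-441503 with 35 (8 and 9). Those at chr4:584590-721030 (10 and 5), chr11:17106147-17234918 (6 and 7) and chr23:2013039-2169458 (9 and 13) had 32 each, and chr14:14100959-14241260 had 30 (6 and 5). Among the 10 largest, MACS2 cover was higher with FGF2 in 3 and higher in control in 7. Gaps between MACS2 peaks gave more control-only enhancers in all of the 10 but chr14:14100959-14241260 (8 FGF2-only and 7 control-only). At chr3:37573169-37758304 they gave 8 and 23, and at chr4:584590-721030 they gave 5 and 14.

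The clusters with most shared enhancers included chr14:4783723-4891085, where 19 of 24 enhancers were shared, 2 were FGF2-only and 3 control-only. MACS2 peaks covered 64.1% of it with FGF2 and 63.1% in control, but in 10 peaks with FGF2 and 18 in control, and the gaps between them gave 2 FGF2-only, 11 control-only and 5 shared enhancers. In chr13:459417-557903, 19 of 25 were shared, 6 were FGF2-only and none was control-only, and MACS2 cover was 62.4% with FGF2 and 61.1% in control. Homer found no H3K27me3 peak there in either condition. The cluster chr11:17106147-17234918 also had 19 shared enhancers, and the 2 largest clusters of chromosome 24 had 22 each.

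Over the 243 clusters outside the parts of chromosomes 1 to 3 where control MACS2 positions are rounded, the callers gave different balances of H3K27ac. Homer called 3653 peaks with FGF2 and 3633 in control, or 20.3 and 20.2 per 100 kb, a ratio of 1.01. MACS2 called 2792 with FGF2 and 3650 in control, or 15.5 and 20.3 per 100 kb, a ratio of 0.765, and covered 33.3% of the span with FGF2 and 38.5% in control. The MACS2 ratio was also 0.765 in chains of 5 to 9, so it was not particular to the dense clusters. MACS2 cover was larger in dense clusters than in chains of 5 to 9 in both conditions (33.3% against 24.97% with FGF2, and 38.5% against 28.9% in control).

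At the level of single enhancers, MACS2 followed the classes in part. A MACS2 H3K27ac peak of FGF2 tissue overlapped 66.8% of the members and one of control tissue overlapped 75.4%, against 51.1% and 58.7% of all joined enhancers. For FGF2-only members the shares were 63.5% (60.7 to 66.1%) with FGF2 peaks and 61.9% (59.2 to 64.6%) with control peaks. These were nearly equal, whereas among all members the share with control peaks was the larger. For control-only members they were 49.6% (46.7 to 52.5%) with FGF2 peaks and 72.2% (69.5 to 74.7%) with control peaks. Shared members had the highest, 84.1% with FGF2 peaks and 90.0% with control peaks.

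Across clusters, the lean by enhancer counts went with the difference in MACS2 cover (Pearson 0.60, Spearman 0.57 over 243 clusters). This is a description, because both measures come from the same 2 H3K27ac libraries. Where FGF2-only enhancers exceeded control-only ones by 30 or more per 100 enhancers of the cluster (61 clusters), MACS2 cover was higher with FGF2 in 38 and higher in control in 23, with a median difference of 3.38 points. Where control-only enhancers exceeded by as much (54 clusters), cover was higher with FGF2 in 3 and in control in 51, with a median of -13.6 points. Over all 243 the median was -5.17 points, and 79 clusters had more cover with FGF2 and 164 more in control. The lowest value belonged to a small cluster, chr7:2910887-2950271, with 2.63% covered with FGF2 and 47.2% in control. It falls outside the rule for named clusters and was picked after its values were seen.

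**Figure D4:**
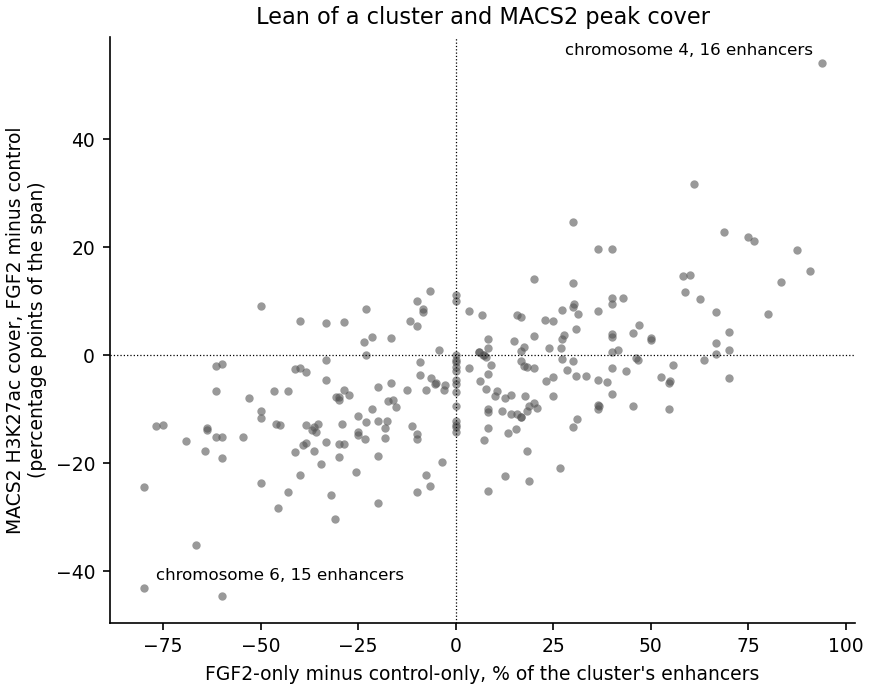
Difference in MACS2 H3K27ac cover, FGF2 minus control, in percentage points of the span (y axis) against FGF2-only minus control-only enhancers as a percentage of the cluster's enhancers (x axis), 1 point per cluster (243). The chromosome 4 cluster beside Foxi3 is the highest point (54.1), the labelled chromosome 6 cluster is near the bottom, and most points (164) lie below 0.

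H3K27me3 was sparse in the clusters and more often called with FGF2. Homer called 500 peaks with FGF2 and 319 in control within the same 243 clusters, or 2.78 and 1.78 per 100 kb, a ratio of 1.57. Chains of 5 to 9 had 3.23 per 100 kb with FGF2 and 1.94 in control, a ratio of 1.67. MACS2 gave a far larger gap, with 448 peaks with FGF2 and 15 in control. In chains of 5 to 9 it called 486 with FGF2 and 20 in control, so this gap was not particular to the dense clusters. Over all 247 clusters, 122 had more Homer H3K27me3 peaks with FGF2, 56 had more in control and 69 had equal numbers. A cluster had a median of 2 such peaks with FGF2 and 1 in control, and 30 clusters had none in either. The highest number with FGF2 was 14, in the second largest chromosome 24 cluster, which had 8 in control.

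Both leans had more H3K27me3 peaks with FGF2. The 126 clusters with more FGF2-only enhancers had 2.59 peaks per 100 kb with FGF2 and 1.90 in control, a ratio of 1.36. The 106 with more control-only enhancers had 2.90 with FGF2 and 1.56 in control, a ratio of 1.86. Whether these ratios differ could not be tested with 1 library per condition and mark.

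Overlap of the enhancers themselves with H3K27me3 was also counted. What share the density of H3K27me3 peaks alone would give was not computed. Of the members, 10.1% (9.21 to 11.1%) overlapped a Homer H3K27me3 peak of FGF2 tissue and 6.05% (5.32 to 6.85%) one of control tissue, against 12.3% and 7.49% of all joined enhancers. Among FGF2-only enhancers the share with an FGF2 peak was 11.3% (9.58 to 13.2%) in dense clusters and 15.96% (15.1 to 16.9%) outside. Among control-only enhancers the share with a control peak was 6.91% (5.53 to 8.50%) in dense clusters and 9.84% (9.03 to 10.7%) outside. Chains of 5 to 9 were close to the dense clusters, with 12.0% (10.5 to 13.7%) for FGF2-only and 8.62% (7.22 to 10.2%) for control-only enhancers. Of all their enhancers, 10.5% overlapped an FGF2 peak and 6.34% a control peak. Overlap somewhat below that of all joined enhancers was thus not particular to the dense clusters. For shared enhancers the shares inside and outside differed by less than their intervals, at 10.9% and 11.2% with FGF2 peaks and 6.13% and 6.12% with control peaks.

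Predicted binding sites of AP1, the Jun:Fos dimer that acts downstream of FGF and MAP kinase signalling, were listed by the study in 7 windows at FGF-response genes. Only clusters in these windows can hold one. Of 1370 joined sites, 113 lay in 5 dense clusters in 3 of the windows, and 4 windows had no dense cluster. The cluster beside Foxi3 held 25 sites, or 4.22 per 10 kb against 3.46 per 10 kb in the rest of its window, and 21 of them lay in FGF2 enhancers and 1 in a control enhancer. That split is not independent of the enhancer classes, since nearly all enhancers of the cluster are FGF2-only. What split the cover of each list alone would give was not computed.

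The remaining windows with clusters were on chromosomes 6 and 26. The cluster chr6:16779406-16897331, with 10 FGF2-only, 2 control-only and 8 shared enhancers, held 25 sites, or 2.12 per 10 kb against 3.02 outside. MACS2 cover was 43.7% with FGF2 and 24.0% in control there, but in 16 peaks with FGF2 and 25 in control. Gaps between those peaks gave 3 FGF2-only, 10 control-only and 9 shared enhancers, the opposite lean. The chromosome 26 window touched 3 clusters, with 2.83 sites per 10 kb in the parts inside it against 3.55 outside the clusters. They were chr26:1242440-1340931 (5 FGF2-only, 2 control-only and 13 shared), chr26:1365705-1459132 (7, 5 and 5) and chr26:1600564-1719397 (1, 9 and 16). They held 4, 26 and 33 listed sites, or 3.83, 2.78 and 2.78 per 10 kb of window, but only 10.4 of the 98.5 kb of the first lay in the window. Of these sites, 20 lay in FGF2 enhancers and 27 in control enhancers. Conserved regions were predicted by DREiVe in the same study only around selected FGF-response genes. Of 356 joined regions, 13 lay in dense clusters, 3 beside Foxi3 and 10 in the last of these chromosome 26 clusters. The share of the searched DNA that dense clusters fill was not computed, so these counts show neither more nor fewer than expected.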

How the data were processed

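The authors mapped trimmed reads with Novoalign (galGal4), retained those with a unique alignment, and used Homer and MACS2, with input as background, to call H3K27ac and H3K27me3 peaks. The titles of the FGF2 H3K27me3 and FGF2 input samples name FGF2, while their source fields name FGF3 and FGF4, and the titles were followed. The deposited files used here are lists of start and end positions, without heights, counts or p-values. A pair of lists that only repeat the Homer H3K27ac peaks was left out. The 477 blank lines of the control MACS2 H3K27me3 list were skipped, and 4432 control MACS2 H3K27ac peaks have rounded positions from 100 Mb on chromosomes 1 to 3, so clusters there (4) were left out of MACS2 values in both conditions.

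The study describes putative enhancers as regions of at most 3 kb without H3K27me3 peaks. The deposited lists used here are wider, with rows up to 5000 bp and some under H3K27me3 peaks, so they are not the set the study counted. Their name credits both callers, but how MACS2 entered them is not given in the sources used here. Overlap means at least 1 bp. MACS2 cover is the share of a cluster's span under its peaks. Named clusters are the 10 largest, the 8 with the largest excess of each condition, the 5 with most shared enhancers, and any within 300 kb of a cloned element or holding an AP1 site or DREiVe region. The clusters and these lists were chosen with earlier results of these data known. Joining and chaining were tested on simulated lists. Alternatives covered chain distance, cluster size, enhancer width, H3K27me3, caller, overlap and chromosomes. Nearest genes were not analysed here, because no galGal4 annotation was used. Element positions and primers come from the study's supplement. Versions were scipy 1.17.1, numpy 2.4.6, matplotlib 3.10.9 and Python 3.11.15.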

Additional observations from a re-analysis of the deposited data

How the results depend on the processing

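The number of dense clusters, 247, depended on the rule. It was 101 with a chain distance of 5 kb and 378 with 25 kb, 388 with at least 8 and 106 with at least 15 enhancers, 110 with enhancers of at most 3 kb, 116 from the FGF2 list alone and 101 from the control list alone. It divided into 88 on chromosomes 1 to 10 and Z and 159 on 11 to 28. The shared share of 36.7% was 43.6% at 5 kb, 38.4% at 10 kb and 31.2% at 25 kb. It was 34.0% with at least 8 and 39.2% with at least 15 enhancers, 30.6% with enhancers of at most 3 kb, 34.6% on chromosomes 1 to 10 and Z, and 56.7% when rows of the lists were counted without joining. The ratio of FGF2-only to control-only enhancers, 1.06, lay so near 1 that it fell below 1 at 5 kb (0.992), with at least 12 enhancers (0.982), without enhancers under an H3K27me3 peak of their own condition (0.921) and on chromosomes 11 to 28 (0.874), and was 1.55 on chromosomes 1 to 10 and Z.

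Enhancers derived in the same way from MACS2 peaks gave 361 clusters with a shared share of 30.6% and a ratio of 0.300. Of these clusters 54.8% overlapped a cluster of the deposited lists, and 82.3% of the deposited ones overlapped one of these. Of 123 clusters with more FGF2-only enhancers in the deposited lists, 87 had more control-only enhancers by MACS2 and 21 more FGF2-only. Of 105 with more control-only enhancers, 97 kept that lean and 6 had more FGF2-only. Among the 15 clusters with an FGF2-only excess of 10 or more, 7 kept that lean, 5 had more control-only enhancers and 3 had equal counts. All 8 with such a control-only excess kept theirs. The cluster beside Foxi3 had 6 FGF2-only, 3 control-only and 1 shared MACS2-derived enhancer. The H3K27ac peak ratio of 0.765 was 1.01 with Homer peaks and 0.866 by length covered. The H3K27me3 ratio of 1.57 was 29.9 with MACS2 peaks, against 24.3 with MACS2 peaks in chains of 5 to 9. The cause of these differences was not tested. Alternatives by chromosome group and by unjoined rows were chosen after seeing the data. No paired analysis was possible because each condition and mark has 1 library. Without read depth, fewer peaks in a library cannot be told apart from a shallower library.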
